A study of Mus musculus with 4 samples.

Results

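The cells described here are mainly the mesenchyme of the mesonephros, the transient embryonic kidney that lies against the gonad. They are all cells that the deposited annotation names Mesonephros, 25563 of 52745 cells in a droplet-based single-cell RNA-seq study of mouse gonads with the attached mesonephros. The study asked how loss of the miR-17~92 microRNA cluster alters XY gonads around the time of sex determination, and the mesenchyme was carried along in each dissection. There were 4 samples, 1 per group: an XY control at embryonic day E11.5 with 11121 Mesonephros cells, an XY knockout (KO) at E11.5 with 8863, an XY KO at E11.75 with 3865, and an XX control at E11.5 with 1714. Over all cell types the deposited labels give 17057 cells to the E11.5 KO and 8492 to the E11.75 KO. The study's methods print these numbers the other way round, and the labels were followed here. The annotation splits these cells further into 4 names, Mesonephros 1 (9171 cells), Mesonephros 2 (7953), Mesonephros 3 (6619) and Mesonephros 4 (1820), and each is described too. By its markers Mesonephros 4 went against the label of mesenchyme, and it is included where that word is used for the whole set.

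The labels give the background of all samples as C57BL/6 x 129S4/SvJae. Per the study's methods, both alleles of the cluster were deleted in the KO embryos by genome editing in G4 embryonic stem cells, an XY line from a C57BL/6J and 129 hybrid. The embryos were grown from these cells by tetraploid complementation, in which the fetus itself comes from the stem cells and its placenta does not. The XY control embryos were made in the same way from the unedited parental line. The XX control embryos came instead from natural breeding, with no stem cell step. A comparison of the XX with the XY control therefore sets sex, breeding and library apart at once, and these cannot be told apart. The deletion was present in every cell of the KO embryos and not only in the mesenchyme. Each sample was a pool of pairs of gonads, and no group had a replicate, so no comparison carries a p-value. All intervals are exact 95% intervals and cover counting error only. Values in 4 samples are listed in the order of the XY control, the E11.5 KO, the E11.75 KO and the XX control.

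Mesonephric mesenchyme surrounds the Wolffian duct and the mesonephric tubules, and it supplies matrix and secreted signals to them and to the adjoining gonad. Its cells derive from intermediate mesoderm and carry transcription factors of that origin, such as Osr1, Gata2 and Tbx18, together with Hox genes that record position along the body axis. MicroRNAs of the miR-17~92 cluster are cut from one primary transcript, Mir17hg, and pair through their seed with matching sites in the 3′ UTRs of messenger RNAs, which lowers the level or the translation of those messages. The cluster is known for supporting cell proliferation and survival, and mice without it are small and die around birth.

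The 6 mature miRNAs encoded by the deleted cluster are shown because their seeds define the sites counted below. Sequences were read from RefSeq for GRCm38.p6, the assembly also called mm10, where all lie on the plus strand of chromosome 14. Capitals mark the seed, bases 2 to 8 from the 5′ end.
mmu-miR-17-5p: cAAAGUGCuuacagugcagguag
mmu-miR-20a-5p: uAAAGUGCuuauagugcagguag
mmu-miR-18a-5p: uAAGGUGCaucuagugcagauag
mmu-miR-19a-3p: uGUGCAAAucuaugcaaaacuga
mmu-miR-19b-3p: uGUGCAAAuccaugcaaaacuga
mmu-miR-92a-3p: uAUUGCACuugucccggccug

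They span chr14:115043684-115043706 for miR-17-5p to chr14:115044476-115044496 for miR-92a-3p. miR-17-5p and miR-20a-5p share 1 seed and miR-19a-3p and miR-19b-3p share another, which leaves 4 seed families.

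The sites below were found by a search of mm10 3′ UTRs and are shown because their genes stand in the list of classical targets described last. Capitals mark the 8mer match, 8 bases that pair with the seed and end in an A opposite base 1 of the miRNA, within 24 bases of the message strand.
Zbtb4, miR-17 family, chr11:69781263-69781286, plus strand: tgtttctgGCACTTTAgaaaaact
Zbtb4, miR-18 family, chr11:69780520-69780543, plus strand: ccaaaataGCACCTTAtaccccat
Mylip, miR-19 family, chr13:45411816-45411839, plus strand: tttgtttcTTTGCACAgacatttt
Mylip, miR-92 family, chr13:45411702-45411725, plus strand: ctcatcggGTGCAATActagctaa
Ccnd2, miR-19 family, chr6:127128815-127128838, minus strand: ttttttttTTTGCACAattataat
Bcl2l11, miR-17 family, chr2:128160444-128160467, plus strand: cgactggaGCACTTTActgtctca
Bcl2l11, miR-92 family, chr2:128162441-128162464, plus strand: ctgtacctGTGCAATActgctgta

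The Mesonephros cells held 42768920 unique molecular identifiers (UMIs) in the XY control, 43486834 in the E11.5 KO, 14481278 in the E11.75 KO and 28715043 in the XX control. The XX cells were the deepest, with a median of 14477.5 UMIs per cell against 3293 to 4586 in the XY samples. The E11.75 KO sample stood apart in the share of mitochondrial UMIs (5.47% against 3.19% to 4.50%) and of Gm42418, a transcript that overlaps ribosomal RNA (1.36% against 0.453% to 0.558%). It also came from 1 library, whereas each of the others merged 2 technical replicates per the study's methods. Within those 3 samples, 2, 1 and 6 genes were past 2-fold between the technical replicates, and this gives the technical spread only. Of the cell barcodes, 345 occurred in more than 1 library, 86 of them among Mesonephros cells. Levels are given in CPM, the UMIs of a gene summed over the Mesonephros cells of a sample, divided by the total of all genes there and scaled to a common library size.

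The 5 markers of mesonephric mesenchyme were present in all samples. Gata2, a zinc finger transcription factor, was at 143 CPM in the XY control, 102 CPM in the E11.5 KO, 251 CPM in the E11.75 KO and 114 CPM in the XX control. It was highest in the E11.75 KO, where the value exceeded that of each E11.5 sample. Tbx18, a T-box factor, was at 29.5, 29.7, 41.2 and 31.2 CPM, and Osr1, a zinc finger factor of early intermediate mesoderm, was at 23.03, 23.98, 25.1 and 27.8 CPM. Osr1 thus varied least among the markers. The homeobox factor Meis2 was at 676, 627, 975 and 635 CPM, and Col1a1, a chain of type I collagen, was at 710.3, 923, 1352 and 467 CPM. The summed level of the 5 markers was 1582, 1706, 2645 and 1275 CPM.

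The mesenchymal markers summed to more than each list of markers of other cell types, except that globin transcripts summed to more in the XY control. The 8 markers of mesonephric tubule and duct summed to 38.4 to 64.6 CPM, the 5 markers of gonadal somatic cells to 56.8 to 110.5 CPM, the 6 of endothelium to 40.2 to 106.8 CPM and the 6 of germ cells to 11.4 to 28.2 CPM. The 8 markers of smooth muscle and pericytes summed to 408, 557, 293 and 445 CPM, above Gata2, Tbx18 and Osr1. All members of the tubule and duct, gonadal somatic, endothelial and germ cell lists were above 0 in every sample. Coelomic epithelium summed to 18.3 to 30.9 CPM and neural crest to 9.16 to 17.3 CPM. Nephron progenitor markers, which include Eya1, Sall1 and Hoxd11, summed to 31.4, 18.2, 62.9 and 59.1 CPM. Skeletal muscle progenitor markers summed to 0.414 to 2.62 CPM, with 3 of 5 above 0 in the E11.75 KO and in the XX control, and hepatoblast markers to 3.13 to 5.35 CPM. Globin transcripts were the largest outside contribution at 3495, 1326, 2042 and 961.3 CPM. Their spread between samples was wider than that of any mesenchymal marker. Per the study's methods the XY samples were filtered at different beta globin limits, highest in the XY control and lowest in the E11.5 KO. The XX sample was filtered by cluster instead, and the part of filtering in these sums was not tested.

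Shares of cells with a UMI were compared after every cell with at least 3000 UMIs was thinned to that number, which kept 7549, 7810, 2270 and 1703 cells. Gata2 was seen in 25.7%, 21.8%, 39.6% and 26.9% of thinned Mesonephros cells and in 32.3%, 29.0%, 48.4% and 52.2% of unthinned ones. In germ cells, with median depths of 11990.5, 12156, 9279.5 and 40644 UMIs, the thinned shares were 5.04%, 3.80%, 15.2% and 2.38%, and stray RNA and expression by the germ cells themselves cannot be told apart in them. Both the Mesonephros share of Gata2 and that in germ cells were highest in the E11.75 KO. Col1a1 was seen in 79.3%, 85.5%, 89.4% and 69.8% of thinned Mesonephros cells, in 82.3%, 91.1%, 89.4% and 94.8% of unthinned ones and in 3.96%, 6.96%, 7.28% and 4.76% of thinned germ cells, which should lack it. Without thinning the XX control had the highest share for both genes, and at equal depth it did not. Shallower cells were left out unevenly, with 2270 of 3865 kept in the E11.75 KO and 1703 of 1714 in the XX control. Mesonephros 1 had the lowest median depth of the 4 names in each sample, and the part of the left-out cells in these shares was not tested.

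**Figure D1:**
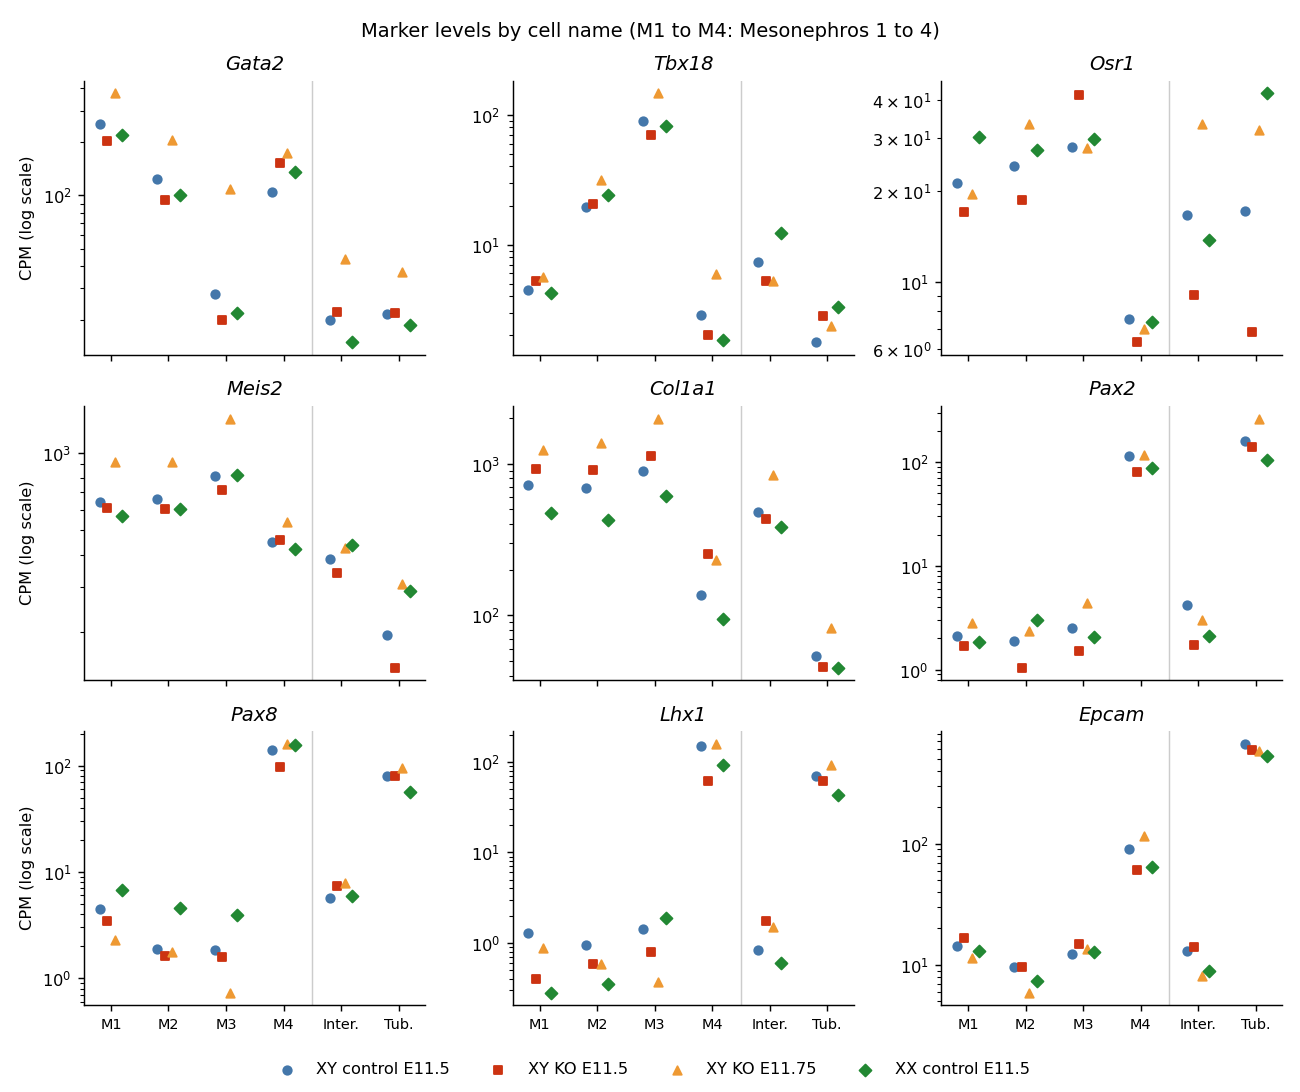
Level in CPM on a log axis of the 5 mesenchymal markers and of Pax2, Pax8, Lhx1 and Epcam, with 1 point per sample, in the 4 Mesonephros names, interstitial cells (Inter.) and mesonephric tubules (Tub.). Gata2 is higher in Mesonephros 1 than in Mesonephros 3 in each sample while Tbx18 runs the opposite way, and Pax8 and Lhx1 are high in Mesonephros 4 and in tubules.

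The genes that most set the Mesonephros cells apart from all other cells of a sample describe the cells and were not tested, since the annotation was built from the same counts. By the lowest log2 ratio among the 4 samples they were Gm32647, Inhba, Gm47423, Gm34354, Ntrk2, Foxd1, Adamts18, Il1rapl2, Ntsr1, Avpr1a, Tbx18 and Lum. Inhba, the activin beta A subunit, was at 23.01, 23.4, 77.1 and 13.2 CPM and at 2.11, 3.28, 17.5 and 0.298 CPM in interstitial cells of the gonad. Ntrk2, a neurotrophin receptor, was at 166, 148, 183 and 107 CPM and at 42.1, 16.6, 20.8 and 44.4 CPM in interstitial cells. Foxd1, a forkhead factor known from kidney stroma, was at 165, 253, 155 and 268 CPM, and at 26.3, 38.2, 18.96 and 41.5 CPM in interstitial cells. Lum, a small proteoglycan that binds collagen, was at 87.3, 138, 221 and 52.5 CPM. These 4 genes were higher in Mesonephros than in interstitial cells in all 4 samples.

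The 4 names within the Mesonephros cells differed in leading genes. Mesonephros 1 was led by Thy1, Igfbp3, Agtr2, Gm16064 and Esr1. It held the highest Gata2, at 252, 201, 374 and 219.7 CPM, and the IGF-binding protein Igfbp3 at 1405, 1835, 2779 and 1006 CPM against 149, 150.4, 328 and 52.2 CPM in Mesonephros 3. Mesonephros 3 was led by Gm32647, Syt1, Chrm2, Nrg1 and Cdh18 and held the highest Tbx18, at 89.2, 69.3, 146 and 82.5 CPM against 4.46, 5.23, 5.65 and 4.22 CPM in Mesonephros 1. Gata2 in Mesonephros 3 was 28.1, 19.8, 108 and 21.7 CPM, and Foxd1 was 304, 329.5, 371 and 474 CPM. Nrg1, a ligand of ERBB receptors, was at 49.9, 43.5, 49.4 and 37.6 CPM there. The order of Gata2 and of Tbx18 between Mesonephros 1 and Mesonephros 3 was the same in each of the 4 samples. The names were formed from these same counts over all samples together, so this is a description and not replication.

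Mesonephros 2 was led by Pif1, Ankle1, Neil3, Esco2 and Cdca2, genes of DNA replication, repair and mitosis. The 41 genes of the G2/M list summed to 10372, 9948, 10659 and 9527 CPM in Mesonephros 2 and to no more than 4201 CPM in any other name, and it was intermediate in both Gata2 (124, 93.7, 206 and 101 CPM) and Tbx18 (19.5, 20.7, 31.3 and 24.1 CPM). Mesonephros 4 was led by Lhx1, Wnt7a, Wscd1, Plet1 and Pnoc. Lhx1, a LIM homeobox factor of the nephric lineage, was at 151, 61.05, 159 and 92.8 CPM there and at 69.6, 62.3, 93.7 and 42.9 CPM in mesonephric tubules, and Pax8, a paired-box factor of that lineage, was at 140.2, 96.01, 160.1 and 157 CPM. Col1a1 was 136, 256, 231 and 94.6 CPM and Tbx18 was 2.86, 2.01, 5.96 and 1.84 CPM in these cells, with fewer than 3 UMIs of Tbx18 in the XX control. Their Epcam, an epithelial adhesion molecule, was 90.1, 60.8, 115 and 64.3 CPM against 668, 596, 579 and 529.8 CPM in tubules. Mesonephros 4 thus went against the label of mesenchyme and is called by its name only, and every count of genes was also made without it.

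**Figure D2:**
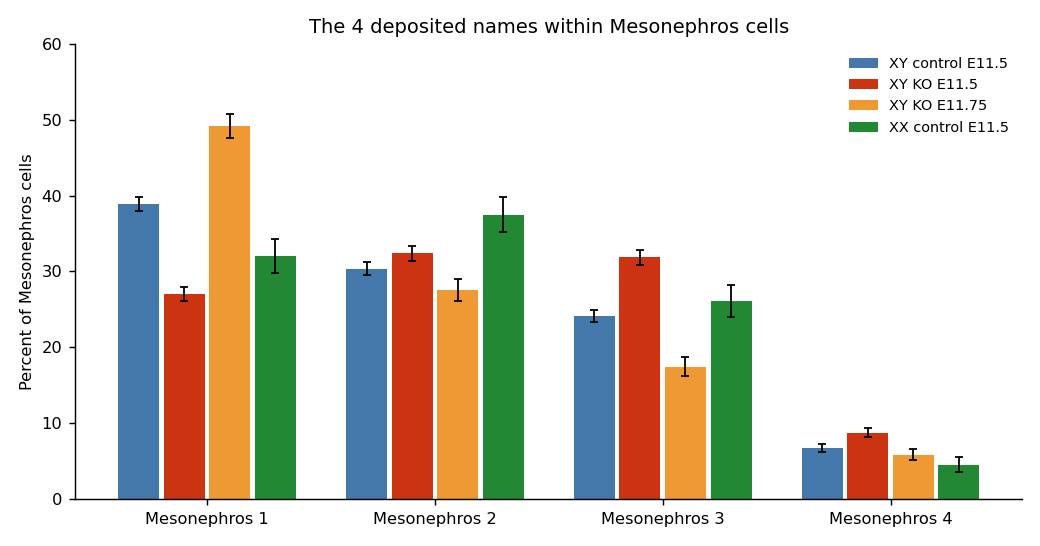
Share in percent of Mesonephros cells with each of the 4 names, by sample, with exact 95% binomial intervals. Mesonephros 1 runs from 27.1% in the E11.5 KO to 49.2% in the E11.75 KO, and Mesonephros 3 runs the other way.

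Mesonephros cells made up 47.3% (46.6% to 47.9%) of all cells in the XY control, 52.0% (51.2% to 52.7%) in the E11.5 KO, 45.5% (44.5% to 46.6%) in the E11.75 KO and 46.7% (45.1% to 48.3%) in the XX control. How much mesonephros was taken with each gonad can set this share. Of cells outside the gonadal types the shares were 68.3%, 72.1%, 70.9% and 63.8%, so that the order of the samples changed with the denominator. Among Mesonephros cells, Mesonephros 1 made up 38.9% (38.0% to 39.8%), 27.1% (26.1% to 28.0%), 49.2% (47.6% to 50.8%) and 32.0% (29.8% to 34.3%). Its shares in the 2 technical replicates were 38.5% and 39.2% in the XY control, 26.7% and 27.3% in the E11.5 KO and 33.1% and 30.8% in the XX control. Mesonephros 3 made up 24.1%, 31.8%, 17.4% and 26.1%. Mesonephros 2 made up 30.4%, 32.4%, 27.5% and 37.5%, and Mesonephros 4 made up 6.70%, 8.72%, 5.85% and 4.43%. The 2 KO samples lay on opposite sides of the XY control for Mesonephros 1 and for Mesonephros 3. The names rest on genes that differ between the samples, so these shares and the levels of those genes are not independent.

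The host gene of the deleted cluster was read first. Mir17hg (chr14:115042879-115046727, plus strand, a long non-coding RNA) was at 18.7 CPM in the XY control, 163 CPM in the E11.5 KO, 163 CPM in the E11.75 KO and 18 CPM in the XX control. Both KO samples thus lay above both controls, with a log2 ratio of 3.12 (3.02 to 3.23) for the E11.5 KO over the XY control. It was 20.8, 168, 158 and 18.7 CPM in Mesonephros 1, 14.4, 137, 142 and 14 CPM in Mesonephros 3 and 26.8, 179, 179 and 26.6 CPM in Mesonephros 4. Where in the transcript these UMIs lie was not examined, so the higher level follows the labels but does not itself measure the deletion.

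Genes were then sought that were past 2-fold of both controls in both KO samples, among 13881 genes with at least 100 UMIs over the 4 samples. There were 15 higher genes (0.108% of those tested) and 23 lower genes (0.166%). The 4 underlying ratios share samples and are not independent of each other. With trimmed mean (TMM) factors in place of totals the counts were 18 and 28, and 11 of the 15 and 22 of the 23 stayed in. With the mean over cells of CPM 13 and 19 stayed in. Of cells with 3000 to 30000 UMIs thinned to 3000, 11 and 8 did so. With the first technical replicate alone 12 and 12 did so and with the second 12 and 11, beside the 1 library of the E11.75 KO. Thinned cells and single replicates hold fewer UMIs, so that fewer genes reach the minimum. The same holds for single names, with 2 and 7 in Mesonephros 1, 5 and 6 in each of Mesonephros 2 and Mesonephros 3 and 1 and 2 in Mesonephros 4. Some genes left by value and not by count. Bckdha, with 5069 UMIs in all, reached the minimum in each setting. It did not meet the rule in the second technical replicate alone, in Mesonephros 2 or in Mesonephros 4. With a minimum of 500 UMIs 5 and 6 stayed in. The excess of lower genes was not kept in every setting. A 1.5-fold limit gave 106 higher and 84 lower genes, and the second technical replicate alone gave 18 and 14.

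**Figure D3:**
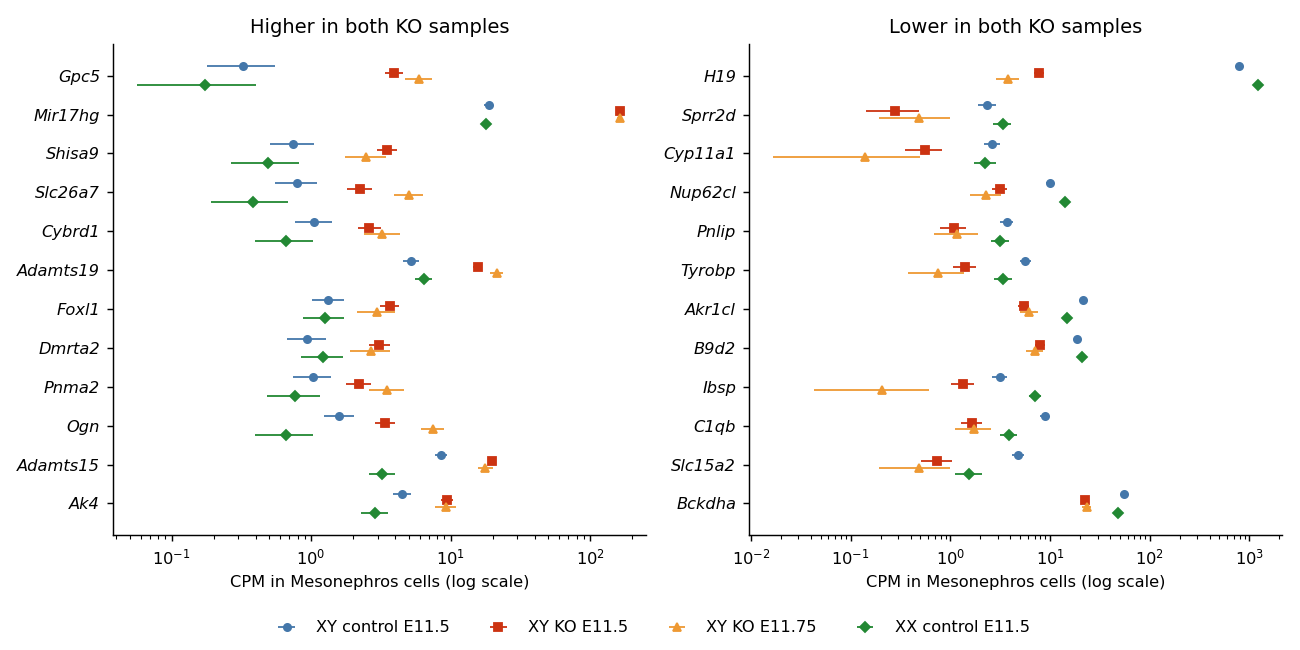
Level in CPM on a log axis with exact 95% Poisson intervals, in each of the 4 samples, of the 12 higher and 12 lower genes named by rank among those past 2-fold of both controls in both KO samples. Both KO samples lie on the same side of both controls by the rule that chose the genes, and H19 spans the widest range.

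Among the higher genes Gpc5, a glypican that sits on the cell surface and carries heparan sulfate, had the highest ratios. It was at 0.327 CPM in the XY control, 3.93 CPM in the E11.5 KO, 5.94 CPM in the E11.75 KO and 0.174 CPM in the XX control, and its log2 ratio over the XY control was 3.54 (2.80 to 4.49) in the E11.5 KO and 4.14 in the E11.75 KO. Gpc5 (chr14:115092215-116525179, plus strand) is the next gene downstream of Mir17hg on the same strand, and it starts 45488 bases beyond its end. It was at 0.142, 4.15, 5.65 and 0.141 CPM in Mesonephros 1 and 0.407, 4.504, 5.12 and 0.157 CPM in Mesonephros 3. Both control values in Mesonephros 1 and the XX value in Mesonephros 3 rested on fewer than 3 UMIs. On 25 UMIs in all it was at 0.421, 2.89, 2.97 and 0 CPM in interstitial cells, and on 49 UMIs at 0.488, 3.24, 4.42 and 0.215 CPM in epithelial mesonephros. In mesonephric tubules, where it was well expressed in each sample, it was at 22.5, 15.5, 23.4 and 14.9 CPM. Both KO samples were thus above both controls in the mesenchyme, in interstitial cells and in epithelial mesonephros, whereas in the tubules the groups overlapped.

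The other higher genes named by rank had varied roles. The metalloprotease Adamts19 was at 5.21, 15.7, 21.4 and 6.41 CPM and its relative Adamts15 at 8.53, 19.9, 17.7 and 3.24 CPM. Osteoglycin (Ogn), a small leucine-rich proteoglycan, was at 1.59, 3.403, 7.46 and 0.662 CPM. Slc26a7, an anion exchanger, was at 0.795, 2.23, 5.04 and 0.383 CPM, and in Mesonephros 3 alone it was at 1.63, 5.37, 16.4 and 0 CPM. The transcription factors Foxl1 (1.33, 3.68, 2.97 and 1.25 CPM) and Dmrta2 (0.935, 3.08, 2.69 and 1.22 CPM) were low in all samples. Shisa9, an auxiliary subunit of glutamate receptors, was at 0.748, 3.495, 2.49 and 0.488 CPM. Cybrd1, a ferric reductase, was at 1.05, 2.62, 3.25 and 0.662 CPM, Pnma2 was at 1.03, 2.21, 3.52 and 0.766 CPM, and Ak4, a mitochondrial adenylate kinase, was at 4.49, 9.497, 9.25 and 2.86 CPM. All genes of this paragraph were below 10 CPM in both controls, and with TMM factors Adamts15, Ak4, Dmrta2 and Foxl1 no longer met the rule.

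Among the lower genes H19, a maternally expressed imprinted RNA that is abundant in embryonic mesenchyme, had by far the lowest ratios. It was at 789.6 CPM in the XY control, 7.77 CPM in the E11.5 KO, 3.798 CPM in the E11.75 KO and 1210.5 CPM in the XX control, a log2 ratio of −6.66 (−6.83 to −6.51) in the E11.5 KO and −7.69 (−8.11 to −7.32) in the E11.75 KO over the XY control. The same held in Mesonephros 1 (912, 7.11, 1.94 and 1345 CPM) and Mesonephros 4 (331, 8.31, 10.9 and 652 CPM). Igf2, its paternally expressed neighbor, was at 103, 149, 143 and 62.5 CPM, with ratios of 0.53 and 0.47. Of the 27 imprinted genes tested, H19 alone was past 2-fold in the E11.5 KO over the XY control, where 0.465% of all genes were higher and 1.13% lower. In the E11.75 KO H19 and Snrpn were lower, and Meg3 and Rtl1 were higher, against 3.23% higher and 1.28% lower of all genes. With TMM factors no imprinted gene was higher there. Peg3 and Gnas, the most abundant members, were at 1724, 1683, 1619 and 1648 CPM and 1579, 1555, 1259 and 1636 CPM, with no ratio past 2-fold.

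The other lower genes named by rank were below 60 CPM in both controls. Bckdha, a subunit of the branched-chain keto acid dehydrogenase, was at 55.4, 22.4, 23.3 and 48.4 CPM. B9d2, of the transition zone of cilia, was at 18.7, 7.93, 7.04 and 20.9 CPM. Akr1cl, an aldo-keto reductase, was at 21.3, 5.47, 6.21 and 14.9 CPM, the nucleoporin-like Nup62cl at 10.01, 3.15, 2.28 and 14.1 CPM, the peptide transporter Slc15a2 at 4.75, 0.736, 0.483 and 1.53 CPM, the lipase Pnlip at 3.67, 1.08, 1.17 and 3.17 CPM, Sprr2d at 2.34, 0.276, 0.483 and 3.34 CPM and Ibsp at 3.16, 1.33, 0.207 and 7.07 CPM. Ibsp rested on 3 UMIs in the E11.75 KO. Tyrobp and C1qb, which are made by macrophages, were at 5.63, 1.403, 0.760 and 3.38 CPM and 8.81, 1.66, 1.73 and 3.87 CPM. The 6 immune markers together summed to 23.97, 6.16, 5.11 and 11.74 CPM in these cells, and cells named Immune cells made up 0.935%, 0.428%, 0.447% and 2.02% of the samples. Cyp11a1, the first enzyme of steroid synthesis, was at 2.64, 0.552, 0.138 and 2.23 CPM, with 2 UMIs in the E11.75 KO and a ratio of −3.94 (−7.32 to −2.37). The 5 adrenal cortex markers summed to 21.5, 12.6, 11.3 and 20.1 CPM, and adrenal cells made up 1.02%, 0.745%, 0.0942% and 1.499% of the samples. The part of stray RNA from immune and adrenal cells in these values was not tested.

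Of these genes, Mir17hg, Adamts19, H19 and Sprr2d met the same rule in interstitial cells, mesonephric tubules and epithelial mesonephros as well, as did Gm26707, a higher gene. Sprr2d and Gm26707 rested on no more than 33 UMIs in any of these types. Among genes with at least 100 UMIs there, 2 of 2 higher and 2 of 5 lower genes did so in interstitial cells, where 0.127% and 0.137% of all genes did. In mesonephric tubules 2 of 6 and 2 of 8 did so, against 0.0854% and 0.171% of all genes, and in epithelial mesonephros 4 of 6 and 3 of 5, against 0.129% and 0.0736%.

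Bckdha and B9d2 are near neighbors on chromosome 7, which led, after their values were seen, to a look at all genes around them. From Cic to Hnrnpul1 (chr7:25267704-25754757, mm10), a stretch of 487 kb, 12 genes had enough UMIs to be tested. Their summed level in Mesonephros cells was 653, 315, 322 and 626 CPM. The log2 ratio over the XY control was −1.05 (−1.08 to −1.02) in the E11.5 KO and −1.02 (−1.07 to −0.98) in the E11.75 KO, and −0.061 (−0.088 to −0.034) in the XX control. Of the 12 genes 10 were lower in both KO samples than in either control, as were 17% of all 12430 genes tested. The stretch was bounded by these values, so that its count and sums are a description. Cic was among the exceptions, and in the E11.75 KO it was below the XY control but not below the XX control. The genes on either side did not share this. Erf, just before the stretch, was at 53.6, 51.3, 77.9 and 39.3 CPM, and Axl, a receptor tyrosine kinase just after it, was at 86.8, 69.9, 126 and 50.7 CPM. Gm26707 (chr7:25816654-25820654), also past the end of the stretch, was among the genes higher in both KO samples. It was at 0.631, 1.43, 3.52 and 0.383 CPM, on 151 UMIs in all.

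The lower level of the stretch was present in every name and outside the mesenchyme. In all other cells its sum was 665, 329.8, 326 and 635 CPM, with ratios of −1.01 (−1.04 to −0.99) and −1.03 (−1.07 to −0.99). In Mesonephros 4, the smallest name, the ratios were −0.97 (−1.08 to −0.86) and −0.97 (−1.14 to −0.80). The members include Pafah1b3, a lipid hydrolase subunit (229, 122, 75.9 and 261 CPM), the exosome subunit Exosc5 (63.4, 33, 23.7 and 62.1 CPM), Hnrnpul1 (116, 52.8, 72.9 and 112 CPM) and the growth factor gene Tgfb1 (21.7, 6.65, 10.9 and 12.7 CPM).

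Every run of 8 neighboring tested genes on the autosomes and the X chromosome was then read in the same way, 12273 runs in all. For each gene the ratio of a KO sample to a control that was nearest to 0, or of the other sign, was taken, and the median over the 8 genes had to be past 0.5 on the log2 scale. In 5 runs it was at or below −0.5, and their first and last genes set the ends of the stretch on chromosome 7 given above. In 1 run it was at or above 0.5, from Megf10 to Adamts19 (chr18:57133090-59054060). All 8 genes of that run were higher in both KO samples than in either control, as were 15.2% of all genes tested, and the run was chosen by these values. Just before it Lmnb1, a nuclear lamin gene, was at 322.5, 471, 405 and 336 CPM and C330018D20Rik at 19.03, 25.9, 21.7 and 21.4 CPM, also higher in both KO samples. The genes of the run include Adamts19 and the fibrillin gene Fbn2, whose product builds microfibrils and which was at 418, 745, 1039.6 and 264 CPM. The sum of the run was 593, 1028, 1410.2 and 426 CPM in Mesonephros cells and 291, 516, 752 and 229 CPM in all other cells. In the latter Megf10 was at 2.02, 3.91, 1.76 and 1.35 CPM, below the XY control in the E11.75 KO, and Slc27a6 was at 2.96, 2.91, 4.41 and 2.37 CPM. The number of copies of either stretch in the KO embryos was not tested.

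At matched stage, the E11.5 KO differed from the XY control by more than 2-fold in 61 higher genes (0.465% of 13111 tested) and 148 lower genes (1.13%). The median gene lay at −0.095, and the 2-fold limit was not shifted by it. With TMM factors, which moved the median to 0.012, the split was 82 higher and 115 lower. Lists of genes with known roles were read against these shares. In what follows a list member that is neither among its 2 most abundant nor its 2 most different genes, counted at E11.5, was named after its value was seen.

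Of the mesenchymal transcription factors, 0 of 47 tested were past 2-fold in either direction, and the list's median was −0.14. Meis2, a member whose levels are given above, was within 2-fold of the XY control there. Of the 29 Hox genes tested, 3 were lower and 0 higher, while the list's median of 0.068 lay above that of all genes. With TMM factors 2 were lower and Hoxb9 was higher, and Hoxa10 was within 2-fold. The 3 were posterior genes of group 10 or 11. Hoxd11 was at 15.5, 6.48, 34.8 and 41.7 CPM, with a ratio of −1.26 (−1.47 to −1.06). Hoxa11 was at 4.302, 1.59, 10.98 and 11.4 CPM (−1.43 (−1.86 to −1.03)), and Hoxa10 was at 36.1, 17.1, 73.3 and 56.03 CPM (−1.08 (−1.21 to −0.95)). All 3 were lowest in the E11.5 KO and higher in the E11.75 KO than in the XY control. The nephron progenitor markers, of which Hoxd11 is one, were also lowest in the E11.5 KO at a summed 18.2 CPM, against 31.4, 62.9 and 59.1 CPM in the XY control, the E11.75 KO and the XX control, and their part in these values was not tested. Hoxd11 itself, at the levels given above, is a large part of each sum, so the sums partly repeat its values.

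**Figure D4:**
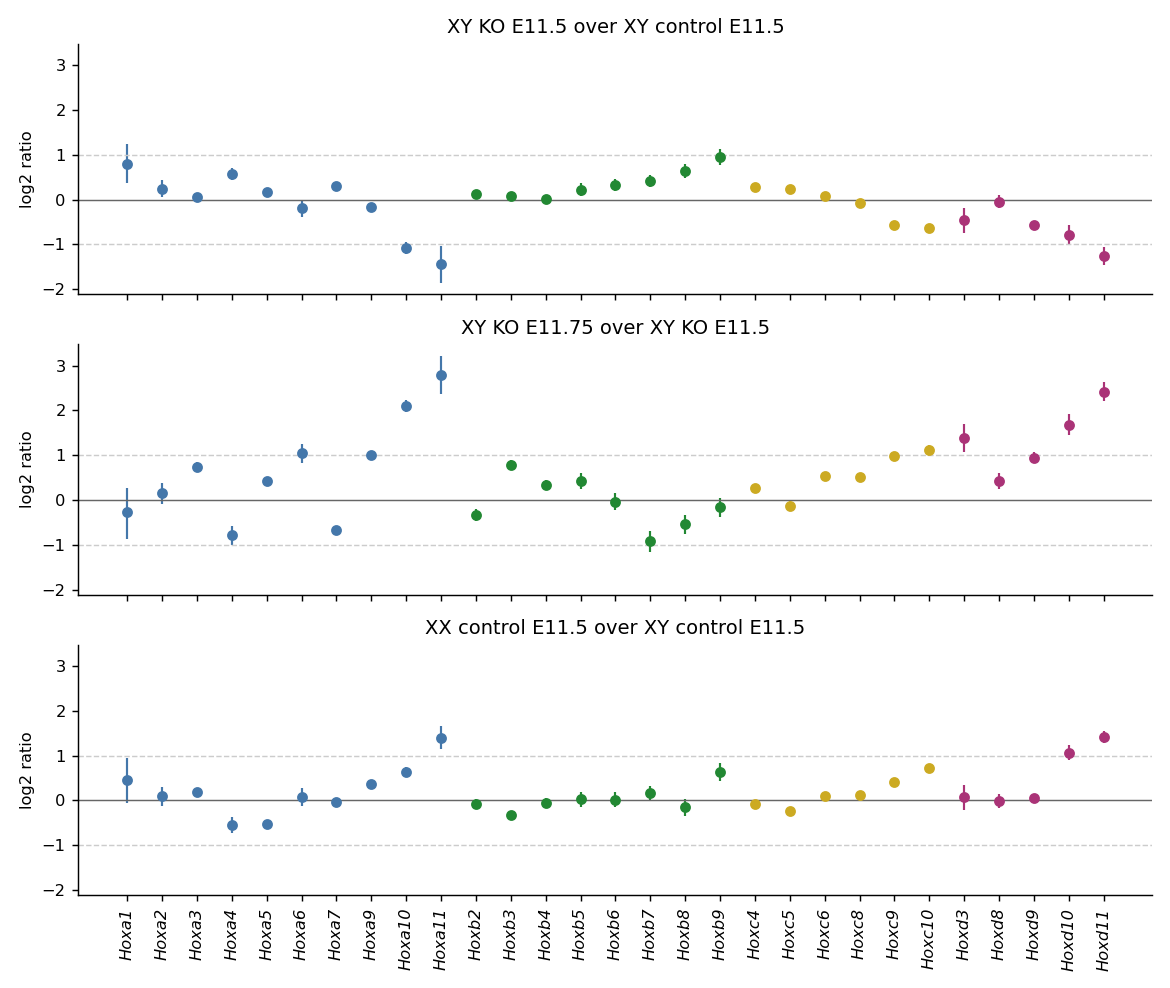
Log2 ratio of each tested Hox gene in Mesonephros cells with its exact 95% counting interval, in 3 panels (the E11.5 KO over the XY control, the E11.75 KO over the E11.5 KO, XX over XY control), colored by cluster a to d, with dashed lines at 2-fold. Hoxa10, Hoxa11 and Hoxd11 lie below the lower line in the first panel and above the upper line in the second. Both panels use the E11.5 KO, as numerator and then as denominator, so they are not independent.

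Hoxa10 was lowest in the E11.5 KO both in Mesonephros 1 (34.2, 17.1, 54.03 and 35.7 CPM) and in Mesonephros 3 (42.5, 20.9, 114 and 78.2 CPM). In mesonephric tubules it was at 48.2, 15.5, 102 and 96.8 CPM, with the same sample lowest, and in interstitial cells at 9.06, 7.33, 9.67 and 13.1 CPM. Hoxd10 was at 11.2, 6.53, 20.99 and 23.5 CPM and Hoxc10 at 45.7, 29.3, 63.4 and 75.7 CPM. Hoxb9 went the other way, at 9.35, 18, 16.02 and 14.6 CPM. Posterior Hox levels depend on where along the axis tissue is taken, and the extent of each dissection cannot be told apart from genotype and stage in these samples.

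Of the extracellular matrix genes, 3 of 60 were higher and 0 lower in the E11.5 KO, against 0.465% and 1.13% of all genes, and the list's median was 0.20. With TMM factors 4 were higher. The members past 2-fold without them were Col9a1 (10.7, 28.5, 14.7 and 24.3 CPM), Col2a1 (12.5, 27.04, 15.7 and 15.98 CPM) and Ogn, the first pair of which are known from cartilage. Col2a1 differed by name: it was at 15.97, 51.2, 58.9 and 30.1 CPM in Mesonephros 3 and at 11.6, 8.99, 2.83 and 12.5 CPM in Mesonephros 1. The ratio thus had the same sign in Mesonephros 3 as in all Mesonephros cells and the other sign in Mesonephros 1. The abundant heparin-binding growth factors Mdk (2804, 2904, 1871 and 3005 CPM) and Ptn (1332, 1448, 1115 and 1131 CPM) were within 2-fold of the XY control.

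In the lists of secreted signals few members were past 2-fold in the E11.5 KO. Tgfb1, of the stretch on chromosome 7, was the single one of 40 BMP and TGF-beta genes, with a ratio of −1.71 (−1.90 to −1.52). Bmper, a secreted BMP modulator, was at 29.4, 46.5, 51.5 and 26.7 CPM, and Id3, a target of BMP signals, was at 916, 958, 637 and 1084 CPM. In the Hedgehog list 0 of 11 and in the FGF list 0 of 17 were past 2-fold, with Gas1 at 439, 435, 557 and 399 CPM and Fgfr1 at 163, 143, 212 and 110.2 CPM. Of 17 genes of retinoic acid handling Aldh1a1 was lower, at 6.22, 2.3, 4.76 and 3.48 CPM, and Aldh1a2, the main embryonic enzyme of retinoic acid synthesis, was at 238, 154, 166 and 301 CPM, a ratio of −0.62 (−0.67 to −0.58) that had the other sign in Mesonephros 4 (0.23).

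Of 43 WNT genes Wnt2 was higher and Lgr5, a receptor for R-spondins, was lower (within 2-fold with TMM factors), at 5.097, 2.41, 6.08 and 2.19 CPM. The secreted WNT inhibitor Sfrp1 was at 574, 586, 662 and 365 CPM. Of 19 PDGF and IGF genes Pdgfd was higher, at 3.79, 7.66, 11.3 and 4.53 CPM, and Igf1 was at 49.7, 86.5, 31.2 and 32.7 CPM, a ratio of 0.80 (0.72 to 0.88) that had the other sign in Mesonephros 1 (−0.66). Among signals to neighboring cells 0 of 35 passed 2-fold. Dlk1, an imprinted transmembrane ligand, was at 388, 649.9, 639.6 and 261 CPM, and the chemokine Cxcl12 was at 392, 535, 379 and 343 CPM. Dlk1 was higher in both KO samples than in both controls.

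Cell cycle lists held no large difference between the matched samples. No gene was past 2-fold among 37 of S phase (median −0.084), 41 of G2/M phase (median −0.018) or 13 G1 cyclins and inhibitors in the E11.5 KO. Top2a, a topoisomerase of dividing cells, was at 443, 444, 525 and 452 CPM. Glycolysis and the low oxygen response stood further from the rest, with 3 of 35 higher (5 with TMM factors), 0 lower and a median of 0.43. The mitophagy receptor Bnip3 was at 13.7, 32.03, 22.3 and 13.8 CPM, the lactate exporter Slc16a3 at 31.4, 73.2, 33.6 and 18.9 CPM and the kinase Pdk1 at 20.7, 42.4, 39.6 and 10.9 CPM. Gapdh was at 775, 1010.1, 409.6 and 1089 CPM and Mif at 1181, 1594, 717 and 1251 CPM. These 5 genes were higher in the E11.5 KO than in the XY control, but Gapdh and Mif were lowest in the E11.75 KO. Of 20 immediate early and stress genes, which respond to dissociation, 0 were higher and Hspa1b was lower. Hspa1b was past 2-fold lower in the XX control than in the XY control as well.

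The E11.75 KO had 405 higher genes (3.23% of 12545 tested) and 160 lower genes (1.28%) against the XY control at E11.5. Stage, deletion, clone and library cannot be told apart there. Against the E11.5 KO the E11.75 KO had 721 higher (5.8% of 12422) and 158 lower genes (1.27%), where stage and library cannot be told apart. The medians of all genes were 0.15 and 0.25. With TMM factors, which brought them to −0.0076 and −0.018, the splits were 266 and 280 in the first comparison and 324 and 469 in the second, so that the excess of higher genes depended on scaling.

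The genes furthest apart between the KO samples were named by rank. Col15a1, a collagen of basement membranes, was at 4.86 CPM in the XY control, 4.44 CPM in the E11.5 KO, 54.97 CPM in the E11.75 KO and 1.11 CPM in the XX control, a log2 ratio of 3.63 between the KO samples. Grik1, a glutamate receptor subunit, was at 2.69, 2.25, 28.9 and 1.25 CPM (3.67 (3.36 to 4.01)). Moxd1 was at 3.905, 3.29, 29.8 and 2.58 CPM, the potassium channel Kcnd3 at 7.01, 4.35, 33.1 and 3.9 CPM, the protease inhibitor Pi15 at 2.55, 1.08, 11.4 and 2.19 CPM and Penk, which encodes enkephalin, at 1.94, 2.94, 21.1 and 1.22 CPM. In each of these 6 the E11.75 sample was above all 3 E11.5 samples. Lower at E11.75 were the smooth muscle genes Tagln (89.1, 166, 26.2 and 153 CPM) and Cnn1 (3.39, 7.04, 0.760 and 3.83 CPM), the transcription factors Lhx2 (5.87, 4.94, 0.414 and 0.383 CPM) and Foxf1 (3.93, 5.01, 0.967 and 1.36 CPM), and Mpped2 (42.6, 68.8, 14.9 and 34.3 CPM). The summed markers of smooth muscle and pericytes, given above, were also lowest in this sample.

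Members of several lists were past 2-fold higher at E11.75, beside 5.8% higher and 1.27% lower of all genes against the E11.5 KO, and fewer were so with TMM factors. Of the Hox genes 8 of 29 were higher than in the E11.5 KO (5 with TMM factors, which also gave 2 lower), Hoxa11, Hoxd11 and Hoxa10 among them. Of the transcription factors 12 of 47 were higher and 2 lower (6 and 3 with TMM factors), with Gata2 among the higher and Lhx2 and Foxf1 the lower. In the Hedgehog list 4 of 11 were higher (1 with TMM factors). The receptor and target Ptch1 was at 81.1, 88.6, 182 and 58.1 CPM and the decoy receptor Hhip at 5.82, 6.78, 15.7 and 4.005 CPM. Against the XY control, where the median of all genes was 0.15 and 3.23% were higher and 1.28% lower, the Hedgehog list had a median of 0.82, and 4 of 11 were higher (3 with TMM factors). Wnt5a, a non-canonical WNT ligand, was at 130.3, 136, 435 and 91.2 CPM. Igfbp5 was at 559, 631, 2009 and 298 CPM and Igfbp3 at 791, 848, 1655 and 473 CPM. Mesonephros 1 was a larger share of the E11.75 KO than of the E11.5 KO. Within names Gata2 was at 201 and 374 CPM in the E11.5 KO and the E11.75 KO in Mesonephros 1, 93.7 and 206 CPM in Mesonephros 2 and 19.8 and 108 CPM in Mesonephros 3, past 2-fold in the last pair of names. Wnt5a was at 202 and 613 CPM in Mesonephros 1 and Igfbp5 at 634.5 and 2426 CPM. The matrix list had 13 of 60 higher against the XY control (8 with TMM factors), beside the same 3.23% of all genes, and 7 against the E11.5 KO (4 higher and 3 lower with TMM factors). Its members included the type VI collagen genes Col6a1 (59.6, 64.9, 194 and 26.7 CPM) and Col6a2 (45.1, 46.96, 169 and 18.5 CPM).

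Of the glycolysis list 7 of 35 were past 2-fold lower at E11.75 against the E11.5 KO (14 with TMM factors), with a median of −0.47. Against the XY control 0 were lower and Slc2a3 was higher (2 lower and 0 higher with TMM factors), with a median of −0.072. The retinoid-binding protein gene Crabp1 was at 214, 258, 95.1 and 361 CPM, one of 3 lower genes in its list. S phase and G2/M lists held 0 genes past 2-fold in either direction (2 lower in each with TMM factors). The remaining lists had 3 higher and 1 lower of 39 (BMP and TGF-beta), 5 and 0 of 16 (FGF), 6 and 0 of 40 (WNT), 3 and 1 of 19 (PDGF and IGF), 9 and 0 of 35 (signals to neighboring cells), 2 and 1 of 13 (G1 cyclins and inhibitors), 3 and 0 of 17 (immediate early and stress) and 1 and 2 of 27 (imprinted genes). With TMM factors these were 2 and 2, 2 and 0, 2 and 1, 2 and 1, 5 and 0, 0 and 2, 2 and 0, and 0 and 3 in the same order. The higher shares of mitochondrial UMIs and of Gm42418 in this sample stand beside all of these values, and their part was not tested.

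The XX control had 54 higher genes (0.421% of 12819 tested) and 201 lower genes (1.57%) against the XY control, with a median of −0.12. With TMM factors (median −0.012) the split was 76 and 148. Among the genes that could be named, which leave out Xist, the highest ratio was that of Tsix, the antisense partner of the X-inactivation RNA, at 3 UMIs in the XY control and 10.67 (9.35 to 13.17). Arg1, which encodes arginase, was at 2.13, 1.29, 0.967 and 9.403 CPM, and the LIM homeobox factor Isl1 was at 2.57, 6.44, 4.42 and 10.8 CPM. The non-coding 1700048O20Rik was higher too, Gm14226 was at 2.34, 1.66, 0.552 and 8.39 CPM, and the histone gene Hist1h3i was at 2.03, 5.82, 2.9 and 5.68 CPM. Isl1 and Hist1h3i were also higher in both KO samples than in the XY control.

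Lower in the XX control were Tpm3-rs7 (66.9, 62.3, 43.9 and 3.73 CPM), the ubiquitin ligase gene Mid1 (127, 112, 167 and 17 CPM), the nuclear receptor gene Nr1h5 (4.49, 0.598, 0.138 and 0.279 CPM), Lhx2 and Col15a1, whose values are given above, and the prokineticin receptor Prokr2 (5.89, 3.66, 4.28 and 1.39 CPM). Mid1 is annotated on the X chromosome, and whether its UMIs also came from the Y chromosome was not examined. Nr1h5 was far below the XY control in both KO samples too, with fewer than 3 UMIs in the E11.75 KO. Of 31 Hox genes 5 were higher and 0 lower, namely Hoxd13, Hoxc11, Hoxd11, Hoxa11 and Hoxd10. Of 59 matrix genes 1 was higher (Col9a1, as in the E11.5 KO) and 5 were lower (4 with TMM factors), and the median of −0.54 lay below that of all genes. Col6a2, Col1a1 and Fn1, at 324, 532, 528 and 223 CPM, were each lowest in the XX control. Lgr5 and Hspa1b were past 2-fold lower, as in the E11.5 KO over the XY control. The other lists had at most 2 members past 2-fold in a direction. Their medians also lay below that of all genes in several lists, such as Hedgehog (−0.49), PDGF and IGF (−0.47), FGF (−0.43) and WNT (−0.41). In others they lay above it, such as S phase (0.11) and G2/M phase (−0.033).

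Predicted targets of the miRNAs of the deleted cluster were read last. Mature miRNAs were not measured here. The study also names a related (paralog) cluster, whose part was not tested. An 8mer site of any of the 4 families occurred in 2204 of 17348 genes with an annotated 3′ UTR (12.7%). The share of UTRs was 3.97% for the miR-17 family, 1.63% for miR-18, 5.83% for miR-19 and 2.55% for miR-92. The motifs were GCACTTTA, GCACCTTA, TTTGCACA and GTGCAATA, searched on the message strand. In the E11.5 KO against the XY control, 1787 genes with an 8mer were tested, of which 10 were past 2-fold higher and 10 lower, 0.56% in each direction, beside 0.465% higher and 1.13% lower of all genes. Their median was 0.018 above that of all genes, and the median of genes with no site was 0.010 above it. The 2 groups of genes therefore had nearly the same median at matched stage.

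In the E11.75 KO the median of genes with an 8mer was 0.18 above that of all genes against the XY control and 0.16 above it against the E11.5 KO, and in the XX control it was 0.11 below it (−0.11). Of 1750 tested against the XY control 87 were higher (4.97%) and 4 lower (0.229%), beside 3.23% and 1.28% of all genes. With TMM factors 54 were higher (3.09%) and 7 lower (0.4%), beside 2.12% and 2.23% of all genes. The median of genes with no site differed from that of all genes by −0.14 in both comparisons of the E11.75 KO. Genes with an 8mer had longer 3′ UTRs, with a median of 2560 bases against 680 in genes with no site and 1217 in all, and the part of UTR length in these shifts was not tested. Both controls carry the cluster.

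**Figure D5:**
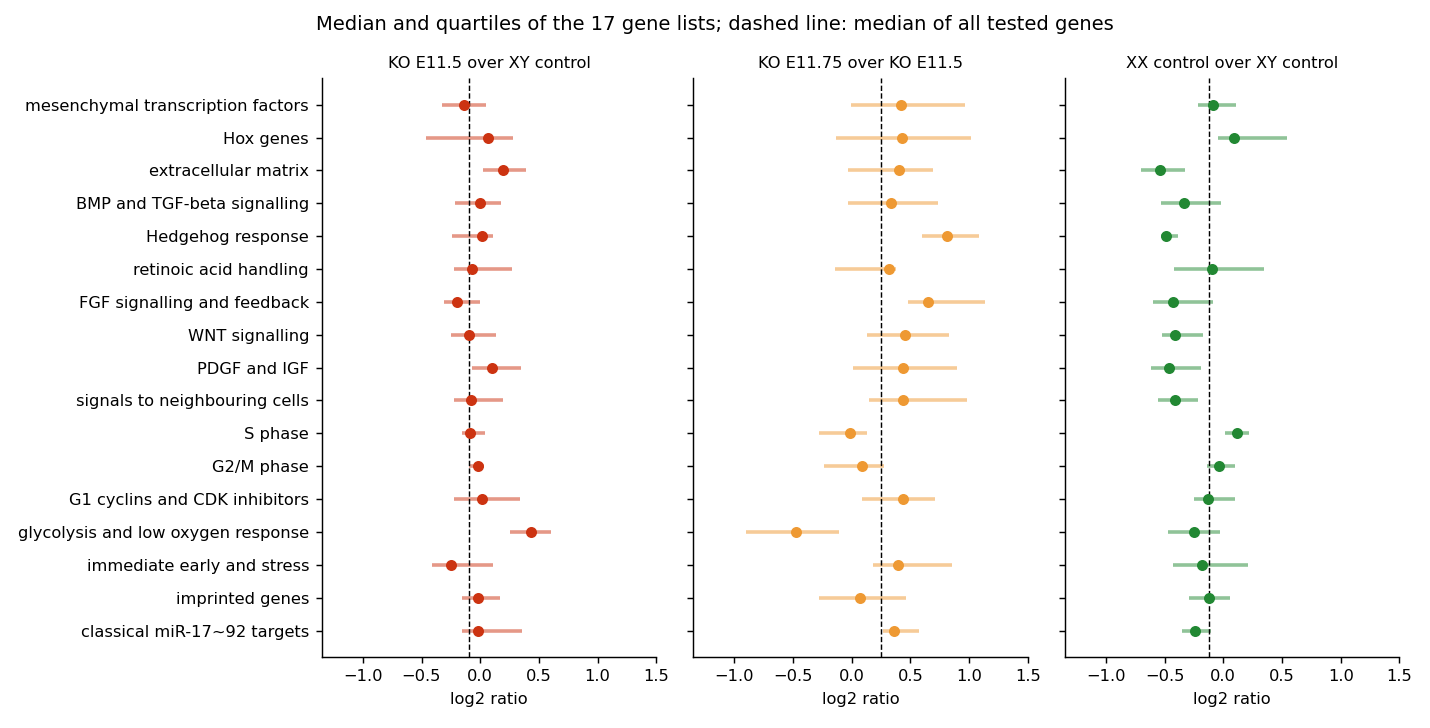
Median (point) and quartiles (bar) of the log2 ratios of each of the 17 gene lists in 3 comparisons, with a dashed line at the median of all tested genes. The median of the glycolysis list is 0.43 in the E11.5 KO over the XY control and −0.47 in the E11.75 KO over the E11.5 KO, on opposite sides of the dashed line. The E11.5 KO is the numerator of one ratio and the denominator of the other, so these medians are not independent.

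Of 33 classical targets tested, 19 of the 32 with a 3′ UTR held an 8mer. In the E11.5 KO, 0 of 33 were past 2-fold in either direction (1 higher with TMM factors), with a median of −0.019. In the E11.75 KO over the XY control 3 were higher and 0 lower (1 higher with TMM factors), with a median of 0.41. Mylip, a ubiquitin ligase whose miR-19 and miR-92 sites are shown above, was at 22.9 CPM in the XY control, 33.6 CPM in the E11.5 KO, 48.1 CPM in the E11.75 KO and 17.9 CPM in the XX control, with a ratio of 0.56 (0.44 to 0.68) at E11.5. Ccnd2, a D-type cyclin with a miR-19 site, was at 477, 664, 897 and 400.3 CPM (0.48 (0.45 to 0.50), but −0.13 in Mesonephros 4 alone), and Thbs1, which encodes thrombospondin 1, was at 9.66, 18.8, 23.96 and 6.69 CPM (0.96 (0.79 to 1.13)). These 3 were higher in both KO samples than in both controls, as were 12 of 32 classical targets and 15.2% of all genes tested. Zbtb4, a zinc finger repressor with miR-17 and miR-18 sites, was at 13.2, 11.3, 28.5 and 8.67 CPM, below the XY control in the E11.5 KO and above it in the E11.75 KO. Bcl2l11, a proapoptotic target with miR-17 and miR-92 sites, was at 59.5, 42.1, 79.9 and 55.2 CPM, a ratio of −0.50 (−0.59 to −0.41), so that the matched KO lay below the control. Ctgf, a matricellular protein gene, was at 9.94, 17.4, 9.67 and 10.2 CPM, higher in the E11.5 KO only, and its ratio there was −0.041 in Mesonephros 1 alone.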

How the data were processed

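Gonads with the attached mesonephros were dissociated with trypsin, fixed in methanol and profiled with the 3′ kit of 10x Genomics. As the labels and methods state, the authors counted reads with Cell Ranger 6.1.1 against mm10 with an added exon of Sry, removed doublets and low-quality cells, and integrated the samples in Seurat to name cells. The XY samples were filtered by limits on UMIs, genes, mitochondrial and beta globin content, and in the XX sample clusters of low quality were dropped instead, so that depth ranges differ between them. The deposited table holds raw UMI counts, and the deposited annotation gives mitochondrial and beta globin content in percent.

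Counts were summed over the Mesonephros cells of each sample with Python 3.11.15, numpy 2.4.6, scipy 1.17.1 and pandas 2.3.3. TMM factors came from edgeR 4.0.16 in R 4.3.3. With 1 sample per group there was no test. Log2 ratios used a prior count of 0.5 and an exact binomial interval, levels an exact Poisson interval and shares a Clopper-Pearson interval. Ratios were read for genes with at least 100 UMIs over the samples compared, and past 2-fold means a log2 ratio of at least 1 or at most −1. Scripts were tested on simulated counts.

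Genes were named by size among those with at least 200 UMIs: the 12 highest and 12 lowest past 2-fold in both KO samples against both controls, the 6 highest and 6 lowest of the XX and of the stage comparison, per list the 2 most abundant and the 2 most different, and the genes leading each cell name. Mitochondrial, ribosomal protein, globin and Y-linked genes and Xist were left out of this rule, and a few genes that it names are not reported here. The members, the 17 gene lists and the 14 marker lists were chosen with earlier results of these data known. Gene positions and 3′ UTRs came from GENCODE M21. Alternatives were TMM factors, totals without technical genes, the mean over cells, 500 or no UMIs as the minimum, a prior of 5, a 1.5-fold limit, thinning to 3000 UMIs, single technical replicates and single names. Leaving out Mesonephros 4, weighting the names as in the XY control, and all reading of genes by position were added after the data were seen.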

Additional observations from a re-analysis of the deposited data

How the results depend on the processing

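No paired analysis was possible because each group is 1 sample. The numbers of genes past 2-fold were 209 in the E11.5 KO and 565 in the E11.75 KO over the XY control, 255 in the XX control, 879 between the KO samples and 38 in both KO samples. With no minimum count they were 3170, 3377, 3522, 3874 and 334. With a minimum of 500 UMIs they were 53, 244, 62, 420 and 11, and of the list members past 2-fold 9 were left. At 1.5-fold they were 857, 2664, 1290, 3754 and 190. For the E11.5 KO the number was 126 after thinning of cells with 3000 to 30000 UMIs, 131 in the first technical replicate and 122 in the second, and for the XX control it was 153 in the second. In Mesonephros 1 alone it was 111 for the E11.5 KO and 122 for the XX control. In Mesonephros 2 alone the numbers were 116, 369 and 149 and 19 in both KO samples, and in Mesonephros 3 alone 114 and 341 in the KO samples and 18 in both. In Mesonephros 4 alone they were 60, 144, 76, 207 and 13. Single names and technical replicates hold fewer UMIs, so that fewer genes reach the minimum, and the part of this in the lower numbers was not tested. Without Mesonephros 4 they were 217, 584, 228, 935 and 46, and with names weighted as in the XY control 210, 569, 241, 849 and 40. Of 88 ratios of named genes in the E11.5 KO over the XY control 25 turned sign under an alternative. Of these 7 were past 0.4, of which Col2a1 alone was past 2-fold. They turned in Mesonephros 1 for Col2a1 (−0.36), Igf1 (−0.66), Ctgf (−0.041), Nrp2 (−0.028) and Cdkn1a (0.16) and in Mesonephros 4 for Col2a1 (−0.43), Aldh1a2 (0.23) and Ccnd2 (−0.13). The cause was not tested. No named ratio turned sign among 24 in the E11.75 KO over the XY control, 12 in the XX control and 12 between the KO samples. Those ratios were all chosen for their size, while the 88 include list members near 0. The counts therefore do not compare the stability of the comparisons. Mesonephros cells made up 68.3% (XY control), 72.1%, 70.9% and 63.8% of cells outside the gonadal types, and 43.8% in the XY control and 37.4% in the E11.75 KO among cells with at least 3000 UMIs. With 8mer or 7-base sites together, the median of predicted targets was −0.0049 from that of all genes in the E11.5 KO and 0.12 from it in the E11.75 KO. With 1 pool per group, embryo to embryo spread could not be measured, and genes under the minimum of 100 UMIs were not compared. At 3 UMIs the floor was 0.0690 to 0.207 CPM over all Mesonephros cells. It was higher in single names, at 0.212 to 0.530 CPM in Mesonephros 1 and 0.860 to 2.98 CPM in Mesonephros 4.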

Other observations

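Further gene lists were added after the data were seen. Genes of oxidative phosphorylation, which make the respiratory chain, had a median log2 ratio of −0.59 in the E11.75 KO over the XY control (75 tested, 0 higher and 2 lower, Ndufa4l2 and Cox5a) and of −0.60 over the E11.5 KO (74 tested), against −0.013 in the E11.5 KO over the XY control. The medians of all genes were 0.15, 0.25 and −0.095 there, and 3.23% of all genes were higher and 1.28% lower in the first comparison. Genes of cytosolic ribosomal proteins had medians of −0.29, −0.45 and 0.13 in the same comparisons (93 tested). Both lists encode short and abundant messages, and the sample labelled KO at E11.75 also had the highest share of mitochondrial and Gm42418 UMIs. The part of RNA quality in these medians was not tested.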
